A study of Mus musculus with 6 samples.

Results

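The tricarboxylic acid (TCA) cycle enzyme genes described here are Cs, Idh2, Idh3a, Idh3b, Ogdh, Dlst, Suclg1, Fh1 and Mdh2, chosen by symbol as enzymes of the cycle other than succinate dehydrogenase. All 9 were found among the 24422 genes of the count tables, and all 9 were abundant enough to be tested. Poly-A RNA from whole kidneys of C57BL/6 mice at postnatal day 13 was sequenced in 3 Control libraries, labelled wild type, and 3 TfR1 knockout libraries, labelled Tfr1f/f;SixCre. All mice were fed a diet with 220 ppm iron. In the knockout, exons 3 and 4 of Tfrc, the gene of transferrin receptor 1 (TfR1), were flanked by loxP sites and deleted by a Cre under the control of Six2. This Cre is active in the progenitors of the nephron, which do not give rise to the collecting duct, stroma or vessels, and the study describes TfR1-positive cells that escaped deletion, so each knockout library mixed cells with and without the receptor.

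The TCA cycle is a ring of mitochondrial reactions that oxidizes acetyl-CoA to carbon dioxide and passes the electrons to the respiratory chain. TfR1 brings transferrin-bound iron into cells, and iron is needed in the cycle itself by succinate dehydrogenase, which holds iron-sulfur clusters, whereas the enzymes described here do not hold such clusters in mammals. Kidney tubules, above all the proximal tubule and thick ascending limb, are rich in mitochondria and draw most of their ATP from oxidative metabolism. The comparison asked whether the transcripts of these enzymes differed between Control and TfR1 knockout kidneys.

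Total counts per library ran from 16591156 to 22898008, and the 9 genes had between 3168 and 12713 raw counts in every library, so counting error was small and the 3 libraries per group set the precision. Levels are given as normalized read counts, which are counts divided by a DESeq2 size factor for each library. A gene was called changed at a DESeq2 adjusted p under 0.05, where the adjustment covered all 16509 genes tested. Tfrc itself ranged from 3667 to 6485 normalized counts in Control libraries and from 4045 to 6976 in knockout libraries (DESeq2 adjusted p 0.853), so whole-gene Tfrc counts did not check the labels. Among marker genes, 4 of 5 for the thick ascending limb and 3 of 3 for the distal convoluted tubule were called lower in the knockout, beside 7.18% of all tested genes. Both kinds of nephron marker were well detected in Control kidneys. In RNA from a whole kidney, fewer cells of a type and less RNA per cell cannot be told apart.

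None of the 9 TCA cycle enzyme genes was called higher or lower in the TfR1 knockout. Over all tested genes, 14.9% were called (7.74% higher and 7.18% lower), and among genes averaging 1000 normalized counts or more, the abundance class of these enzymes, 14.3% were called. With edgeR, which called 6.02% of the genes it tested, 0 of 9 were called as well, and limma-voom called 0 of 9. Without adjustment, 1 of 9 (Cs) had p under 0.05 with DESeq2 and with limma-voom, and 0 of 9 with edgeR. For all genes these unadjusted counts were 4502 of 16509 with DESeq2, 3982 with limma-voom and 3948 with edgeR. The median log2 fold change of the 9 genes was 0.083, against 0.007 for all tested genes, with 7 values above 0 and 2 below. The 95% interval of the change, computed from its SE, held 0 for 8 genes and lay within a 2-fold change for 7, which leaves Cs and Fh1, whose upper bounds were 1.00 and 1.09 on the log2 scale. Differences inside these intervals were not resolved with 3 libraries per group.

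**Figure D1:**
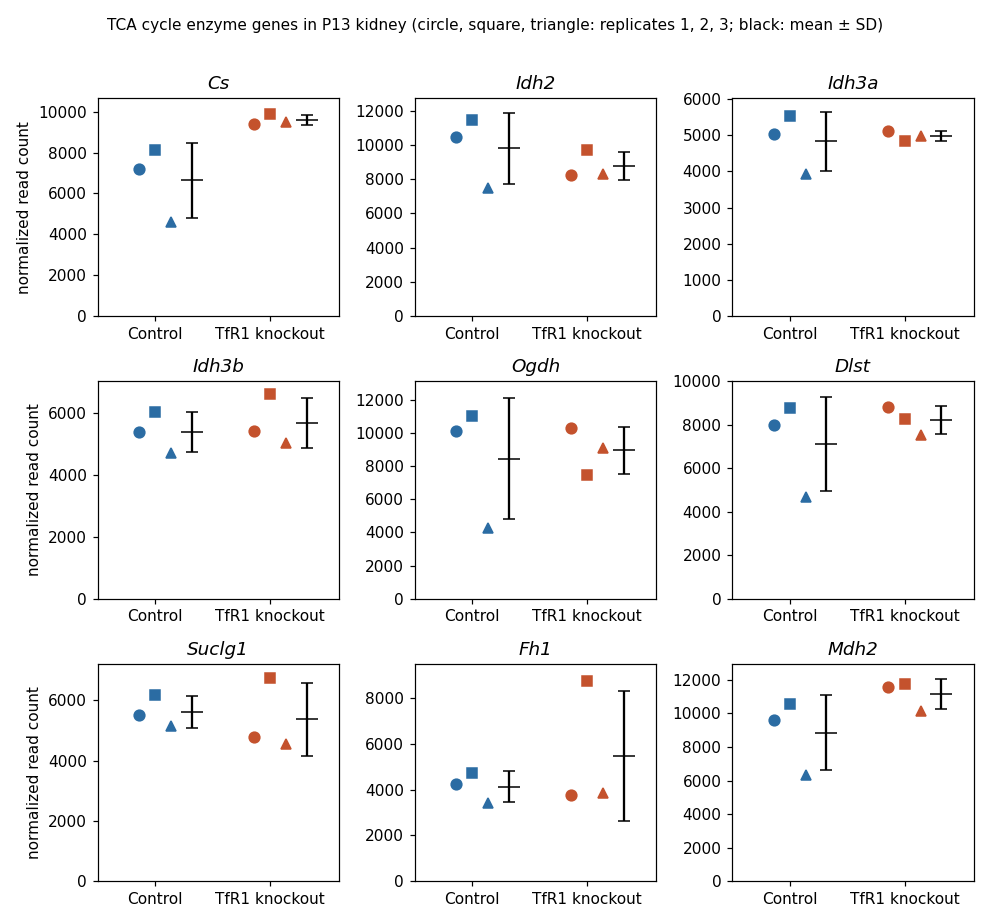
Normalized read counts (y axis, from 0) of the 9 TCA cycle enzyme genes in the 3 Control (blue) and 3 TfR1 knockout (red) libraries, with replicates 1, 2 and 3 as circle, square and triangle and the mean ± SD in black. In all 9 panels Control replicate 3 is the lowest Control library, only Cs shows no overlap between groups, and knockout replicate 2 stands far above the others for Fh1.

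The cycle opens with citrate synthase (Cs, chromosome 10, 127774888 to 127799535, plus strand, mm9), which joins acetyl-CoA to oxaloacetate. In order of replicate number, Cs had 7175, 8135 and 4608 normalized counts in the Control libraries, and 9397, 9871 and 9478 in the TfR1 knockout libraries. All 3 knockout libraries were above all 3 Control libraries, a pattern shared by 16.9% of tested genes in that direction, and Cs was the one gene of the 9 without overlap. The means were 6639 ± 1823 and 9582 ± 253 (SD, n = 3 each), a log2 fold change of 0.53 (SE 0.24, 95% interval 0.058 to 1.00), which did not pass the adjustment over all genes (DESeq2 adjusted p 0.125, edgeR 0.197). Over 15 alternative fits and subsets of libraries, the adjusted p for Cs ran from 0.0681 to 0.280 and the log2 fold change from 0.32 to 0.70. The lowest of these fold changes came when Control replicate 3, the lowest of the 6 libraries for Cs, was left out.

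Isocitrate is oxidized to alpha-ketoglutarate by the isocitrate dehydrogenases. Idh2 (chromosome 7, 87239732 to 87260278, minus strand), the NADP-dependent mitochondrial enzyme, had 10482, 11458 and 7469 normalized counts in Control replicates 1 to 3 and 8235, 9685 and 8327 in the knockout. The 3 knockout libraries lay inside the Control range, between Control replicate 3 and the other two Controls. Its log2 fold change was -0.16 (SE 0.21, 95% interval -0.58 to 0.26, DESeq2 adjusted p 0.668), and -0.33 without Control replicate 3.

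The NAD-dependent isocitrate dehydrogenase is built from catalytic alpha subunits and regulatory beta and gamma subunits. Idh3a (chromosome 9, 54434288 to 54452468, plus strand), the alpha subunit, had 5028, 5524 and 3936 normalized counts in Control replicates 1 to 3 and 5116, 4844 and 4972 in the knockout. The knockout libraries were close together (4977 ± 136) in the middle of the Control range (4829 ± 812, SD, n = 3 each). The change was 0.043 on the log2 scale (SE 0.18, 95% interval -0.31 to 0.40, DESeq2 adjusted p 0.911). Idh3b (chromosome 2, 130105045 to 130110283, minus strand), the beta subunit, had 5416, 6039 and 4729 normalized counts in Control replicates 1 to 3 and 5422, 6618 and 5036 in the knockout. Both groups spanned much the same range, and the log2 fold change was 0.077 (SE 0.19, 95% interval -0.29 to 0.45, DESeq2 adjusted p 0.834). Of all 9 genes, only Idh3b shared exon sequence with another annotated gene, 5 bases with Nop56 on the opposite strand.

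The alpha-ketoglutarate dehydrogenase complex, which makes succinyl-CoA, was represented by its E1 subunit Ogdh and its E2 subunit Dlst. Ogdh (chromosome 11, 6191636 to 6256645, plus strand) had 10090 and 11002 normalized counts in Control replicates 1 and 2 but 4269 in Control replicate 3, and 10302, 7481 and 9077 in the knockout. This was the widest Control spread of the 9 genes (8454 ± 3653, against 8953 ± 1415 in the knockout, SD, n = 3 each), and the log2 fold change of 0.083 had an interval from -0.60 to 0.77 (SE 0.35, DESeq2 adjusted p 0.912). Without Control replicate 3 it was -0.24. Dlst (chromosome 12, 86451783 to 86475041, plus strand) had 7981, 8762 and 4679 normalized counts in Control replicates 1 to 3 and 8827, 8288 and 7556 in the knockout. Here too the groups overlapped and Control replicate 3 was the lowest library (log2 fold change 0.20, SE 0.26, 95% interval -0.31 to 0.72, DESeq2 adjusted p 0.665).

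Succinyl-CoA is split to succinate by succinyl-CoA ligase, whose alpha subunit is encoded by Suclg1 (chromosome 6, 73198376 to 73226905, plus strand). Suclg1 had 5507, 6193 and 5140 normalized counts in Control replicates 1 to 3 and 4800, 6746 and 4565 in the knockout. The highest and the lowest of the 6 libraries were both knockouts, and the log2 fold change was -0.064 (SE 0.21, 95% interval -0.48 to 0.35, DESeq2 adjusted p 0.882).

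Fumarate hydratase (Fh1, chromosome 1, 177530505 to 177555766, minus strand) adds water to fumarate to give malate. Fh1 had 4242, 4734 and 3410 normalized counts in Control replicates 1 to 3 and, in the same order, 3751, 8722 and 3867 in the knockout. Knockout replicate 2 was 2.29 times the mean of the other 2 knockouts, which both lay within the Control range. With it the log2 fold change was 0.40 (SE 0.35, 95% interval -0.29 to 1.09, DESeq2 adjusted p 0.492), and without it -0.11 (DESeq2 adjusted p 0.828). The Fh1 locus overlaps the gene Kmo, but their annotated exons share no bases.

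Malate dehydrogenase 2 (Mdh2, chromosome 5, 136254350 to 136266268, plus strand) closes the ring by returning malate to oxaloacetate. Mdh2 had 9625, 10590 and 6334 normalized counts in Control replicates 1 to 3 and 11581, 11772 and 10140 in the knockout. All 3 knockout libraries were above Control replicates 1 and 3, while Control replicate 2 lay above knockout replicate 3, so the groups overlapped. The means were 8850 ± 2232 and 11164 ± 892 (SD, n = 3 each), a log2 fold change of 0.34 (SE 0.23, 95% interval -0.12 to 0.79, DESeq2 adjusted p 0.363), and 0.14 without Control replicate 3. Cs and Mdh2, the enzymes on either side of oxaloacetate, were 2 of the 3 largest of the 9 fold changes, with Fh1 between them, and none of these passed the test.

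**Figure D2:**
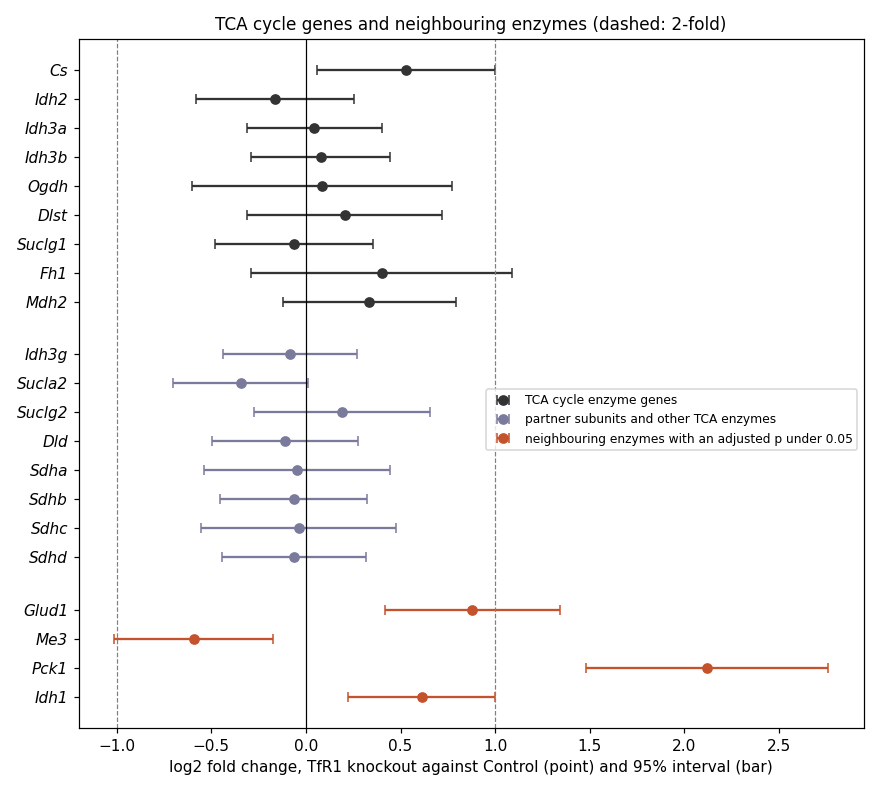
Log2 fold change of TfR1 knockout against Control (point) with its 95% interval (bar) for the 9 TCA cycle enzyme genes, 8 partner genes, and 4 neighbouring enzymes with an adjusted p under 0.05. The interval of Cs alone among the 9 lies above 0, and dashed lines mark a 2-fold change.

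Placed on a per-length scale (normalized counts per kilobase of the longest coding transcript), the 9 genes spanned about the same order in both groups. Mdh2 was highest, with 6078 ± 1533 counts per kilobase in Control and 7668 ± 613 in knockout kidneys, followed by Idh2 at 5477 ± 1162 and 4888 ± 454. Suclg1 (3695 ± 352 in Control) and Idh3b (3338 ± 406) came next, then Dlst (2581 ± 783), Cs (2348 ± 645), Ogdh (2028 ± 876) and Idh3a (2010 ± 338), and Fh1 was lowest at 1566 ± 254 in Control and 2066 ± 1076 in knockout kidneys (SD, n = 3). The one change in the order was an exchange of Cs and Dlst between places 5 and 6. Cs stood below Dlst in Control and above it in the knockout, where Cs had 3388 ± 89.5 counts per kilobase against 2972 ± 230 for Dlst. Among neighbours in the order, only Idh2 and Suclg1 had ranges over libraries that did not overlap in Control. In the knockout the neighbours Mdh2 and Idh2, Idh2 and Suclg1, Cs and Dlst, and Dlst and Ogdh were separate, and the other neighbours overlapped. Every such difference in level rests on the transcript taken for the length.

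The 9 genes shared a pattern by library more than by group. Control replicate 3 was the lowest Control library for 9 of 9 genes, as it was for 43.9% of tested genes, and the lowest of all 6 libraries for 8 of 9, against 23.7% of tested genes, Suclg1 being the exception. Its level was 0.681 times the mean of Control replicates 1 and 2 at the median of the 9 genes, from 0.405 for Ogdh to 0.879 for Suclg1, whereas the median over all tested genes was 0.995. Related gene lists described below were low there too. Their summed normalized counts in Control replicates 1 to 3 were 72686, 79512 and 55197 for the other enzymes of the cycle. Markers of mitochondrial content and biogenesis had 63990, 60789 and 44364. Pyruvate entry had 40740, 43066 and 32039, and enzymes that feed or drain the cycle 117665, 126711 and 82800. Control replicate 2 was the highest Control for 9 of 9, a count for which the share of all tested genes was not computed. Knockout replicate 2 was the highest knockout for 6 of 9, where 40.1% of tested genes had it highest. On a log2 scale centred on each gene, the mean of the 9 in replicates 1 to 3 was 0.038, 0.19 and -0.49 for Control and 0.053, 0.24 and -0.030 for the knockout. Control replicates 1 and 2 thus lay among the knockout libraries, and Control replicate 3 stood apart below all of them. Without Control replicate 3 the median log2 fold change of the 9 genes was -0.029 in place of 0.083, the values of Idh3a, Idh3b, Ogdh and Dlst went below 0, and again 0 of 9 were called.

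**Figure D3:**
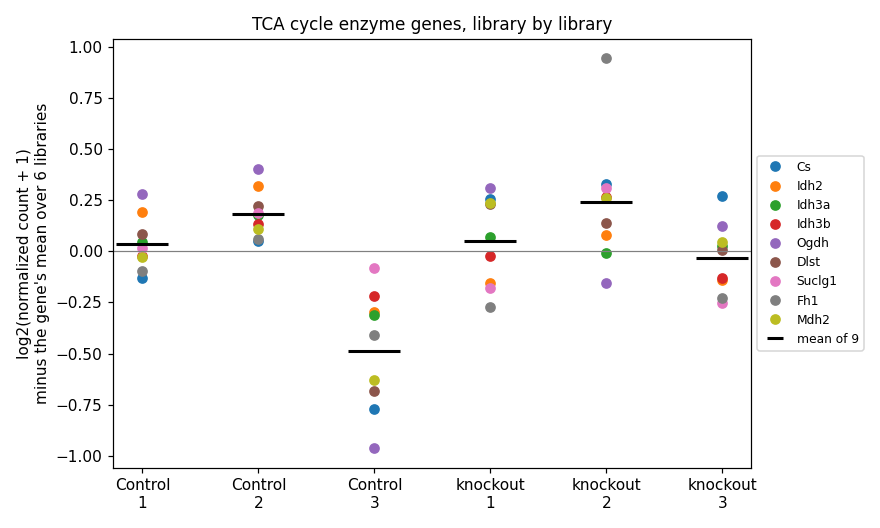
Log2 normalized count (plus 1) of each of the 9 genes minus that gene's mean over the 6 libraries (y axis), by library (x axis), with black bars for the mean of the 9. All 9 genes lie below 0 in Control replicate 3, and Fh1 in knockout replicate 2 is the highest point.

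Markers of the cell types in the kidney moved with that library. The summed normalized counts of 8 proximal tubule markers were 62383 in Control replicate 3 against 115850 and 117803 in the other Controls, and those of 5 thick ascending limb markers ranged from 45941, in Control replicate 3, to 93793 in Control. Stroma moved the other way, with a sum over 4 markers of 120415 in Control replicate 3 and of 62086 and 64152 in the other Controls, and 4 endothelial markers summed to 15948 against 9827 and 10058. Macrophage markers also summed higher there (3218 against 2091 and 2289), as did Alas2, the 1 erythroid marker with counts (4879 against 1571 and 2820). The part of these markers in the low level of the 9 genes in Control replicate 3 was not tested.

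Between the groups, the summed level of the 9 genes ranged from 44574 to 72436 normalized counts in Control and from 63019 to 74026 in the knockout, so the ranges overlapped. Over the same libraries the 5 thick ascending limb markers fell outside the Control range (13387 to 25209 in the knockout), as did the 3 distal convoluted tubule markers, with 736 to 1783 against 11272 to 22529 in Control. The 8 proximal tubule markers had 52515 to 71968 in the knockout against 62383 to 117803 in Control, and 2 of 8 were lower and 1 of 8 higher by the test. In the other direction, 5 collecting duct markers had 29029 to 61946 against 6884 to 13521 (3 of 5 called higher), and 5 macrophage markers 4878 to 7099 against 2091 to 3218 (4 of 5 called higher). The 4 stroma markers had 29641 to 62051 against 62086 to 120415, narrowly without overlap, and 1 of 4 (Col3a1) was called lower. That sum rested mostly on 3 collagen genes, of which Col1a1 overlapped between the groups. Pdgfrb went the other way, with 3475 to 4940 in the knockout against 2814 to 5091 in Control (log2 fold change 0.29, DESeq2 adjusted p 0.548). For podocyte markers 1 of 4 was called higher, for intercalated cell markers 1 of 4 higher and 1 of 4 lower, and for endothelium 0 of 4. Over all tested genes 7.74% were called higher and 7.18% lower. Of 4 erythroid markers, 3 were listed at 0 in every library. The part of these cell type markers in the levels of the TCA cycle genes was not tested.

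**Figure D4:**
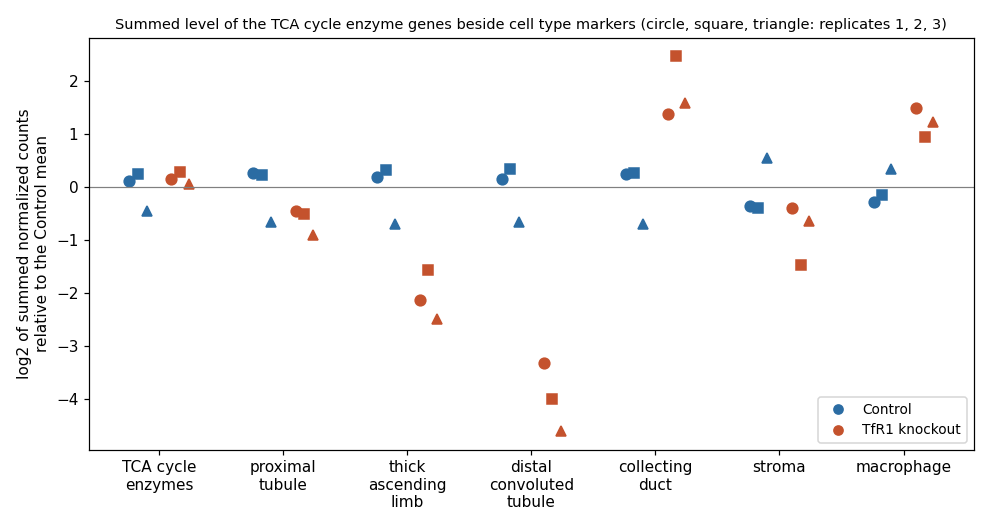
Summed normalized counts of the 9 TCA cycle enzyme genes and of 6 sets of cell type markers in each library, as log2 relative to the Control mean (y axis), with Control in blue, TfR1 knockout in red, and replicates 1, 2 and 3 as circle, square and triangle. The TCA cycle sums of both groups overlap, while distal nephron markers lie below and collecting duct and macrophage markers above the Control libraries.

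Over the 6 libraries, 36 of 36 pairs of the 9 genes had a positive Pearson correlation of log2 normalized counts (median r 0.668), a description over libraries that share 2 groups and 1 low Control. Idh3a and Ogdh were most alike (r 0.973), then Cs and Mdh2 (r 0.963) and Dlst and Mdh2 (r 0.962), whereas Suclg1 and Ogdh had r 0.0435. Without Control replicate 3 the median r fell to 0.286 and 25 of 36 pairs were positive, so the likeness rested in large part on that library. Of 12105 other genes averaging 100 normalized counts or more, those most like the mean of the 9 were Rgmb (r 0.994), Acp6 (r 0.992), Slc47a1 (r 0.991), Atp5b (r 0.991) and Echdc2 (r 0.991). With Control replicate 3 left out, r was 0.984, 0.950, 0.942, 0.939 and 0.954 in the same order. Atp5b, the beta subunit of the mitochondrial ATP synthase, had 56681, 62964 and 35558 normalized counts in Control replicates 1 to 3 and 53352, 62491 and 51480 in the knockout, the same low Control replicate 3. Slc47a1, a transporter that exports organic cations into the urine, went from 4416 and 5105 in Control replicates 1 and 2 to 1896 in Control replicate 3.

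Partner subunits and the other enzymes of the cycle gave the same count, 0 of 9 called, with a median log2 fold change of -0.063. The 4 subunits of succinate dehydrogenase, which links the cycle to the respiratory chain, had log2 fold changes of -0.046 (Sdha), -0.065 (Sdhb), -0.038 (Sdhc) and -0.063 (Sdhd), with adjusted p from 0.870 to 0.949. Idh3g, the gamma subunit of the NAD-dependent isocitrate dehydrogenase, was at -0.085 and Dld, the E3 subunit shared with pyruvate dehydrogenase, at -0.11. The beta subunits of succinyl-CoA ligase, which pair with Suclg1, were at -0.35 for the ATP-forming Sucla2 (DESeq2 adjusted p 0.200) and 0.19 for the GTP-forming Suclg2 (DESeq2 adjusted p 0.652).

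Ratios of counts within a library need no scaling between libraries, so 4 of them were compared by an exact two-sided permutation test, which with 3 against 3 libraries cannot go below p 0.1. The ratio of Sucla2 to Suclg2 in replicates 1 to 3 was 0.774, 0.827 and 0.924 for Control and 0.581, 0.531 and 0.631 for the knockout. All 3 knockout ratios were below all 3 Control ratios, at 0.690 times the Control geometric mean (exact permutation p 0.1, the smallest possible, and 0.4 adjusted over the 4 ratios), which did not pass a threshold of 0.05. The log2 difference was -0.54 and stayed between -0.60 and -0.47 when each library was left out in turn. The ratio of Idh3a to Idh3b overlapped between the groups, from 0.832 to 0.928 in Control and from 0.732 to 0.987 in the knockout (log2 difference -0.017, exact permutation p 1). So did Idh3g to Idh3a (log2 difference -0.15, exact permutation p 0.4, adjusted 0.667) and Dlst to Ogdh (log2 difference 0.065, exact permutation p 0.5, adjusted 0.667). For Dlst to Ogdh, Control replicate 3 at 1.10 and knockout replicate 2 at 1.11 stood above the other 4 libraries, which ran from 0.791 to 0.857.

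**Figure D5:**
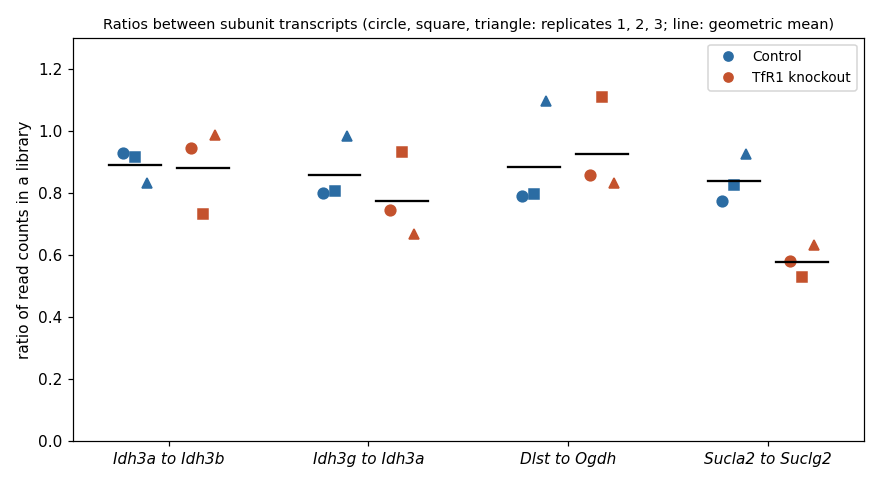
Ratio of the read counts of paired subunit genes in each library (y axis, from 0), with Control in blue, TfR1 knockout in red, replicates 1, 2 and 3 as circle, square and triangle, and a line at the geometric mean of each group. The 3 knockout libraries lie below the 3 Control libraries for Sucla2 to Suclg2, and the groups overlap for the other 3 ratios.

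Genes that bring carbon into the cycle from pyruvate were likewise uncalled, 0 of 13, with a median log2 fold change of 0.083, a range from -0.49 to 2.48 and 4 of 13 at an unadjusted DESeq2 p under 0.05. Of all 16509 tested genes, 4502 had an unadjusted DESeq2 p under 0.05. The smallest changes in this list were those of Pdk1, a kinase that inhibits pyruvate dehydrogenase (log2 fold change -0.0026, DESeq2 adjusted p 0.994), and Pdhx, which anchors the E3 subunit in that complex (0.083, DESeq2 adjusted p 0.817). The 4 genes of this list with an unadjusted DESeq2 p under 0.05 are named after their values were seen. They were Pdk4, another such kinase (2.48, DESeq2 adjusted p 0.0816), and Pdp1, a phosphatase that activates the complex (0.96, DESeq2 adjusted p 0.0621). The others were Pdha1, the E1 alpha subunit of the complex (0.54, DESeq2 adjusted p 0.166), and Mpc1 of the mitochondrial pyruvate carrier (-0.44, DESeq2 adjusted p 0.166). The groups did not overlap for Pdk4 and Pdha1, higher in the knockout, and Mpc1, lower. Of 16509 tested genes, 2783 were without overlap and higher in the knockout, and 2782 without overlap and lower. Markers of mitochondrial content and biogenesis gave 0 of 15 called, 1 of 15 at an unadjusted DESeq2 p under 0.05, and a median of 0.086. Vdac3, a channel of the outer membrane, had 3206 to 3530 normalized counts in Control and 3272 to 3475 in the knockout (log2 fold change -0.013, 95% interval -0.26 to 0.24), and Polrmt, the mitochondrial RNA polymerase, was at -0.015. Hspa9, a chaperone of the mitochondrial matrix (log2 fold change 0.62, DESeq2 adjusted p 0.0714), and Tomm20, a receptor for protein import (0.30, DESeq2 adjusted p 0.317), both named after their values were seen, had all 3 knockout libraries above all 3 Controls. That pattern was shared by 16.9% of tested genes.

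Enzymes and carriers that feed or drain the cycle held the called genes, 4 higher and 1 lower of 20, with a median log2 fold change of 0.17. These were 25% of the list, beside 14.9% of all tested genes. With edgeR 2 of 20 were called, beside 6.02% of the genes it tested. Pck1, which turns oxaloacetate into phosphoenolpyruvate on the way to glucose, had 27010, 33371 and 19947 normalized counts in Control replicates 1 to 3 and 88960, 171509 and 88676 in the knockout, with no overlap. Its log2 fold change of 2.12 (SE 0.33, 95% interval 1.48 to 2.76, DESeq2 adjusted p 6.9e-09) was called in 15 of 15 alternatives. Glutamate dehydrogenase (Glud1), which turns glutamate into alpha-ketoglutarate, rose by 0.88 on the log2 scale (SE 0.24, DESeq2 adjusted p 0.0031). It was called in 13 of 15 alternatives, not by edgeR (adjusted p 0.0680) or limma-voom. Idh1, the cytosolic and peroxisomal counterpart of Idh2, rose by 0.61 (SE 0.20, DESeq2 adjusted p 0.0197, called in 9 of 15 alternatives), and the mitochondrial malic enzyme Me3 was lower (log2 fold change -0.59, SE 0.21, DESeq2 adjusted p 0.0411, called in 7 of 15). Among members of this list with the smallest changes, Acly, which splits citrate in the cytosol, was at 0.068 and Me2 at -0.078. Over the 4 lists together 5 of 57 genes were called, or 8.77%, beside 14.9% of all tested genes. Whether the changes of Pck1 or Glud1 differed from those of the 9 TCA cycle genes was not tested.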

How the data were processed

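Whole kidneys at postnatal day 13 were sequenced as single-end poly-A libraries. The authors trimmed reads with Trimmomatic, aligned them with TopHat2 2.0.11 to mm9, kept uniquely mapped reads and deposited raw HTSeq read counts per gene, which were not normalized. The annotation and strand setting of the counting, and any batches, were not given in the sources used here. Unique counting can lower genes with near-identical copies.

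Groups and replicate numbers came from the sample labels (3 Control, 3 TfR1 knockout, stated to be biological replicates). The members and all gene lists were chosen with earlier results of these data known. All genes were fitted with DESeq2 1.42.0 in R 4.3.3 (Wald test, median-ratio size factors, Benjamini-Hochberg adjustment, independent filtering tuned at 0.05), which left 16509 genes with a mean of at least 3.51 counts. Outlier filtering gave 29 genes no p-value. Alternatives were edgeR 4.0.16 (quasi-likelihood), limma 3.58.1 with voom, other size factors and filters, a replicate block, and each library left out. All members were named, and of the other lists the partner enzymes, the called genes, up to 4 with the smallest changes, and the 5 genes most like the members. Ratios used counts plus 0.5. Positions and transcript lengths came from the GENCODE annotation of mm9, matched by symbol for 20654 genes. No 2 libraries of the same group agreed within counting noise. The code was tested on simulated data. Of the listed genes, 2 that enter the counts are not reported here by name.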

Additional observations from a re-analysis of the deposited data

How the results depend on the processing

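The count of 0 of 9 TCA cycle enzyme genes called, higher or lower, held under all 15 alternatives and at a 2-fold threshold. Their median log2 fold change ran from -0.029 (without Control replicate 3) to 0.31 (without Control replicate 2), and was 0.0060 with total-count size factors, which moved the median of all tested genes by -0.10. With that scaling Idh3a and Idh3b were at -0.053 and -0.036, and with upper-quartile factors Idh3a was at -0.0018. Leaving out 1 library at a time turned the sign of Idh3a (-0.087 to 0.14), Idh3b (-0.041 to 0.16), Ogdh (-0.24 to 0.31), Dlst (-0.029 to 0.37), Suclg1 (-0.26 to 0.044) and Fh1 (-0.11 to 0.61), and of the ratios Idh3a to Idh3b (-0.10 to 0.12) and Dlst to Ogdh (-0.066 to 0.22). Cs, Idh2 and Mdh2 kept their direction throughout.

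Over all tested genes, 1186 lower and 1277 higher calls became 428 and 493 with edgeR, 456 and 485 with limma-voom, and 736 and 728 at a 2-fold threshold, and 575 to 1674 and 664 to 1531 without single libraries. In the 57 genes of neighbouring lists, 1 lower and 4 higher calls became 0 and 2 with edgeR and with limma-voom, 0 and 1 at 2-fold, and 0 to 3 and 3 to 5 without single libraries. Lower calls there numbered 2 with upper-quartile and 7 with total-count factors. Same-numbered samples correlated in their deviations by -0.0378, 0.0548 and 0.0899, so the numbers were not taken as pairs. With the replicate block, 0 of 9 TCA cycle genes were called (Cs 0.57, DESeq2 adjusted p 0.0681), and the neighbouring lists had 2 lower and 8 higher calls. The causes of these shifts were not tested.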

Other observations

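Other genes around the cycle, named here after their values were seen, missed the adjusted threshold. Pdk4, a kinase that inhibits pyruvate dehydrogenase, had 25171 normalized counts in TfR1 knockout replicate 2 against 3434 and 3895 in the other knockouts and 1036 to 2680 in Control. That library was also the highest for Fh1 and for Pck1. Me1, the cytosolic malic enzyme, had 1468 to 4316 normalized counts in Control and 1350 to 1733 in the knockout (log2 fold change -0.92, DESeq2 adjusted p 0.0682). Got1, the cytosolic aspartate aminotransferase, had 1264 to 2523 in Control and 3027 to 4109 in the knockout, without overlap (log2 fold change 0.72, DESeq2 adjusted p 0.0855). Of all tested genes, 16.9% were likewise higher in the knockout without overlap. Ogdhl, a relative of Ogdh, had 124 to 185 normalized counts in Control and 25.6 to 113 in the knockout (log2 fold change -1.17, DESeq2 adjusted p 0.0982).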
